A study of Homo sapiens with 2 samples.

Results

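The 38 genes described here encode the core machinery of macroautophagy and were chosen by symbol, covering initiation, membrane supply, lipid conjugation, cargo receptors and fusion. All 38 were found among the 23375 gene rows, 37 under their own symbol and ATG101 under its older name C12orf44. RNA was sequenced from an SETD2 knockout line derived by zinc finger nuclease cutting, in which an engineered DNA-binding protein carries the cutting domain, and from the 786-O line with wild-type SETD2. 786-O is an established human line from a clear cell renal carcinoma and lacks functional VHL, and both lines were grown in RPMI1640 with serum and no other treatment. SETD2 places the trimethyl mark of histone H3 lysine 36 along transcribed genes. Whether the knockout line is a single clone is not given in the sources used here. The comparison asks which transcripts differ between lines without and with intact SETD2.

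Autophagy encloses cytoplasm in a double membrane, the autophagosome, and delivers it to the lysosome. The ULK kinase complex starts the process when nutrients are short, a class III PI3 kinase marks the forming membrane with a phosphorylated lipid, and ATG9 vesicles and ATG2 lipid channels feed it. Conjugation enzymes then attach ATG8 proteins (the LC3 and GABARAP families) to the membrane, cargo receptors link ubiquitinated material to ATG8, and a SNARE protein drives fusion with the lysosome. In clear cell renal carcinoma the pathway is studied as a survival route under low oxygen and nutrient supply.

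Each line had 1 library, of 50670012 fragments in genes for the knockout and 62304084 for the wild type. With 1 library per line no difference had a replicate check, and each value compares these libraries rather than the genotypes. Ratios are knockout over wild type after scaling, with exact 95% counting intervals that cover counting error only. The calls higher and lower mean that the whole interval was above 1.5-fold or below its inverse. SETD2 itself, the check of the labels, had 1404 knockout and 4908 wild-type fragments, a ratio of 0.334 (0.314 to 0.354). Of 8 markers of the line (PAX8, PAX2, KRT8, KRT18, CDH6, CA9, VIM and MET), 7 had an RPKM of at least 1 in both libraries, and CA9 had 0 knockout and 1 wild-type fragments. RPKM is the deposited read count scaled to gene length and library total. The 10 leukocyte, endothelial and fibroblast markers summed to 0.277 RPKM in the knockout and 0.285 RPKM in the wild type. CD3E was at 0 in both. In RNA from a whole culture, fewer cells of a kind and less RNA per cell cannot be told apart.

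The members called higher were ATG16L1, NBR1, ATG2A, PIK3C3, BECN1, ATG14 and STX17, and those called lower were ULK2 and OPTN. Of the 7 higher members, 3 belonged to the class III PI3 kinase group and 0 to the initiation complex or the ATG8 family. The 7 higher members were 18.4% of 38, against 10.4% of the 16894 genes tested, and the 2 lower members were 5.26%, against 9.17%. Counted in either direction, 23.7% of members were called, close to the 19.6% of all genes tested. Among the 11353 genes with at least 200 fragments in the higher library, a group that holds every member but MAP1LC3A, 7.48% were higher and 11.1% lower. The median log2 ratio of the members was 0.12, against 0.02 for all genes tested and -0.05 for the group with at least 200 fragments. ULK2 and MAP1LC3A, each at 0 in one library, lie below and above the members' median. Each keeps its own side when set to its bound, so the median stays at 0.12 by construction.

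The 250 bases upstream of the start are shown for 5 members, the ULK1 and ULK2 pair and 3 genes of 1 lipid kinase complex. The choice does not follow the strength of the calls. ATG16L1 and NBR1, the higher members with the largest lower bounds, are not shown. ULK2 was not counted in the knockout library while its closest relative ULK1 was, and BECN1, ATG14 and PIK3C3, subunits of the same lipid kinase complex, were called higher. The sequences are from RefSeq promoters on GRCh38.p14, which is not the build of the gene rows (hg19), and read 5′ to 3′ in the direction of transcription from the start used in that table. Capitals mark matches on either strand to CACGTG (the E-box bound by TFEB and its relatives), GGGCGG (the GC box) and CCAAT.
ULK2 (chr17:19867937-19868186, minus strand): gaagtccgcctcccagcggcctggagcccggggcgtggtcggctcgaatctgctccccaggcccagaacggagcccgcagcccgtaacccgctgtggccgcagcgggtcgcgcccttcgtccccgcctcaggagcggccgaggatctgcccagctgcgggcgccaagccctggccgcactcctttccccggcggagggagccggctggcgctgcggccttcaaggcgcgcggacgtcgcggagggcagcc
ULK1 (chr12:131894372-131894621, plus strand): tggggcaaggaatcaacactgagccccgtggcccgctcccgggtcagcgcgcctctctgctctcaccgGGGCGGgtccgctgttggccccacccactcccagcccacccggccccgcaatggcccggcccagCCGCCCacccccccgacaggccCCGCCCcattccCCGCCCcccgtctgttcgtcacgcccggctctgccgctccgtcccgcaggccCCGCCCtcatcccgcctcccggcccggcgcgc
BECN1 (chr17:42823880-42824129, minus strand): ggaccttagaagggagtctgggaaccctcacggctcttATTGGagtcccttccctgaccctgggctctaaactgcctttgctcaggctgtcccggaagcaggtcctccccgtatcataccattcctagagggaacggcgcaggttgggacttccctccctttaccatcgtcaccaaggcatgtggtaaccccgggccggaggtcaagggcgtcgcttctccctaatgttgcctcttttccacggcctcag
ATG14 (chr14:55411831-55412080, minus strand): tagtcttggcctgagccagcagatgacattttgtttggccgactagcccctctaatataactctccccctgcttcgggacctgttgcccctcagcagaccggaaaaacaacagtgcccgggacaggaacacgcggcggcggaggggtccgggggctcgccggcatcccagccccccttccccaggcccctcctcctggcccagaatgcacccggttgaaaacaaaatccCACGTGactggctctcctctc
PIK3C3 (chr18:41954984-41955233, plus strand): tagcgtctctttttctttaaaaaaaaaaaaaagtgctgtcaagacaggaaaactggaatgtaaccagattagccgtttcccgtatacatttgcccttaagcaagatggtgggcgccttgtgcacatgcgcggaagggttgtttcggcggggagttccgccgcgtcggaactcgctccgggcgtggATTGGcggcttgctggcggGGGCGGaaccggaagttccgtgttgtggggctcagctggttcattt

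The upstream sequences of the ULK pair differed in these motifs. ULK1 held 5 GC boxes, the nearest beginning 32 bases before the start, and ULK2 held no match to any of the 3 motifs. ULK1 had 28 CpG pairs and ULK2 had 32, against a median of 22 for the 33 members with a promoter entry and 11 for all 27305 promoters. Among the 3 lipid kinase genes, the E-box was found in ATG14, beginning 21 bases before the start, the GC box in PIK3C3, and the CCAAT motif in BECN1 and PIK3C3. None of the 3 motifs was held by all 3 genes. Over the member promoters, 3 of 33 held CACGTG (9.09%, against 6.49% of all promoters), 22 held GGGCGG (66.7%, against 42.3%) and 11 held CCAAT (33.3%, against 33.0%). The forkhead motif GTAAACA was in 0 of 33 and in 2.98% of all promoters, and the antioxidant response motif TGACNNNGC was in 3 of 33 and in 3013 of all 27305. A match is only a match of letters in this window, and genes can have other starts.

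The members covered a wide range of levels in both lines. RPKM, the level per length, reached at least 10 for 19 members in the knockout and 18 in the wild type, and lay below 1 for 2 members in each. The median member level was 10.4 RPKM in the knockout and 9.10 RPKM in the wild type, against 3.56 and 3.48 RPKM over all genes tested in the knockout and wild type. SQSTM1 was the most abundant member in both libraries, followed by GABARAP and MAP1LC3B in the knockout and by GABARAP and OPTN in the wild type. Ratios of the deposited RPKM are 1.06 times the scaled ratios quoted here for every gene. They leave out the TMM factors (trimmed mean of M values, the scaling used for the ratios). Leaving these out by itself moved the median log2 ratio of all genes by 0.0761. The RPKM also rest on library totals larger than the summed gene counts. The proportion of these totals between the libraries is slightly different, which brought the shift to 0.0792.

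**Figure D1:**
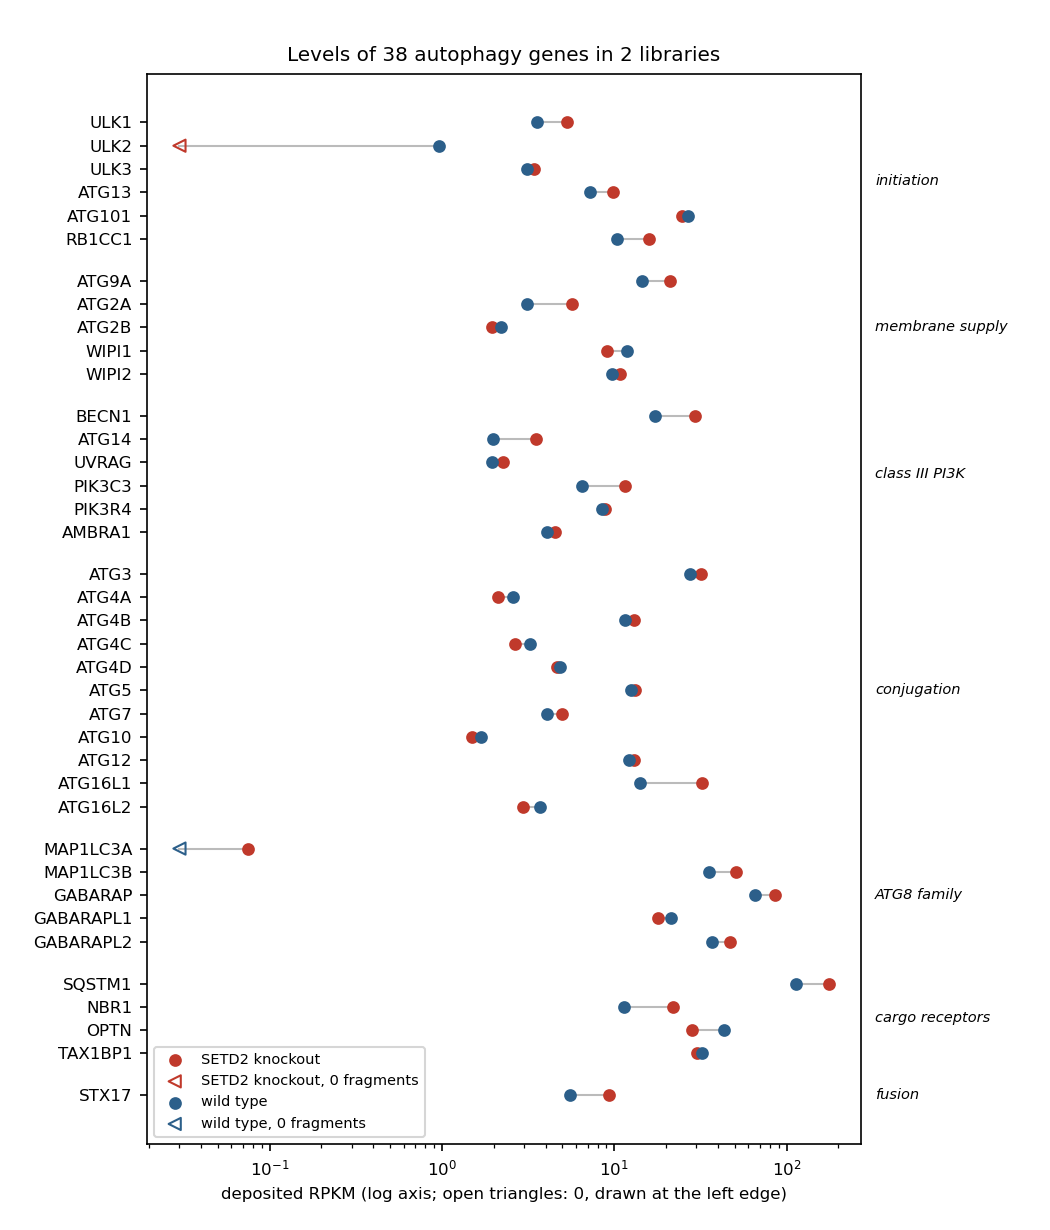
Deposited RPKM (log axis) of the 38 autophagy genes in the SETD2 knockout (red) and wild-type (blue) library, 1 point per library, grouped by role. ULK2 has no knockout point above 0 and MAP1LC3A no wild-type point above 0, and SQSTM1 is highest in both, at 175 RPKM in the knockout and 113 RPKM in the wild type.

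The initiation complex joins the kinase ULK1 or ULK2 to ATG13, ATG101 and the scaffold RB1CC1 (FIP200). ULK2 (hg19 chromosome 17, 19674143 to 19771239) was counted in 0 knockout and 754 wild-type fragments, or 0 and 0.962 RPKM in the knockout and wild type. Against a floor of 3 knockout fragments it was at least 215-fold lower, and the exact interval, which allows for both libraries, starts at 175-fold lower. ULK2 was the only gene of the tables with 0 knockout fragments and at least 754 in the wild type, and 3 genes had 0 with at least 200. By the upper bound of its ratio it ranked 2 from the lowest of all genes tested. Its neighbours on chromosome 17 are given here only for rows with at least 10 reads over both libraries, so rows with fewer reads are passed over. Of the 3 nearest such rows on each side, none was called lower. AKAP10, the nearest on one side, had 1443 knockout and 1240 wild-type fragments, a ratio of 1.36 (1.26 to 1.47). SLC47A2, an organic cation exporter and the nearest on the other side, had 512 knockout and 28 wild-type fragments, a ratio of 21.3 (14.6 to 32.4). Of the 2 next rows on that side, ALDH3A2, an aldehyde dehydrogenase, had a ratio of 1.71 and SLC47A1 had 4 knockout and 1 wild-type fragments. On the AKAP10 side, SPECC1 had a ratio of 1.42 and CCDC144C had 27 knockout and 12 wild-type fragments. The 50 expressed genes nearest to ULK2 had a median log2 ratio of 0.36.

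ULK1, the kinase usually required for starvation-induced autophagy, had the opposite sign but missed the call. It was counted in 1939 knockout and 1600 wild-type fragments, at 5.34 RPKM in the knockout and 3.57 RPKM in the wild type, with a ratio of 1.41 (1.32 to 1.51). ULK1 (chromosome 12, 132379279 to 132407707) had a log2 ratio of 0.50, above the median of -0.57 of its 50 nearest expressed genes. The spread of those 50 genes was not measured. ULK3, a relative with a kinase domain but outside this complex, had 630 knockout and 707 wild-type fragments and a ratio of 1.04 (0.932 to 1.16). The summed RPKM of the 3 kinases was 8.77 in the knockout and 7.67 in the wild type. ULK1 made up 60.8% of it in the knockout and 46.6% in the wild type, while ULK2 made up 0% in the knockout and 12.6% in the wild type. Of ULK1 and ULK2 together, ULK2 was 21.2% of the wild-type level.

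The other subunits of the complex stayed within the 1.5-fold limits. ATG101, which steadies ATG13 and was the most abundant member of the group, had 24.7 RPKM in the knockout and 26.8 RPKM in the wild type, a ratio of 0.872 (0.827 to 0.919). ATG13 had 4154 knockout and 3766 wild-type fragments and a ratio of 1.29 (1.23 to 1.34). RB1CC1 had 7420 and 5950 fragments in the knockout and wild type, and its ratio of 1.45 (1.41 to 1.51) lay just inside the limit. Within the group of 6, ULK2 was the 1 gene called.

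**Figure D2:**
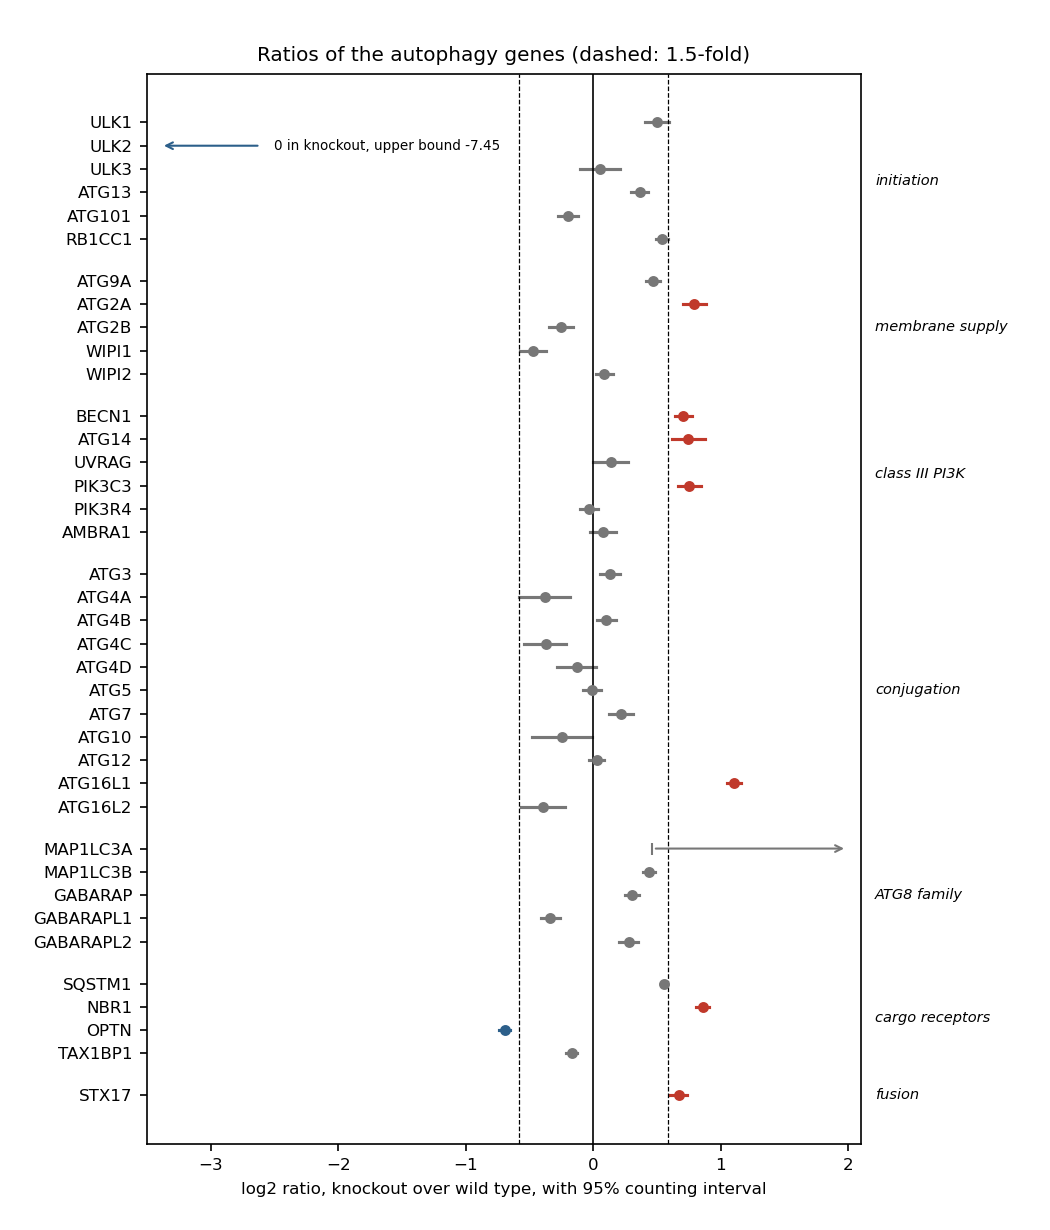
Log2 ratio of knockout over wild type for each autophagy gene with its exact 95% counting interval, red where the whole interval lies above 1.5-fold and blue where it lies below (dashed lines). ULK2 is an upper bound (arrow) and MAP1LC3A a lower bound, and 7 genes lie wholly above and 2 wholly below the lines.

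ATG9A and the ATG2 and WIPI proteins build the membrane. ATG2A, a lipid channel (chromosome 11, 64662004 to 64684722), had 2514 knockout and 1695 wild-type fragments and rose to 5.67 RPKM in the knockout, against 3.10 RPKM in the wild type. Its ratio was 1.73 (1.63 to 1.84). Its paralogue ATG2B had the opposite sign, with 1502 knockout and 2089 wild-type fragments and a ratio of 0.839 (0.784 to 0.897). ATG2A was thus 74.5% of the summed ATG2 level in the knockout and 58.6% in the wild type. ATG9A, the scramblase of the seed vesicles and the most abundant of the group, had 21.2 RPKM in the knockout and 14.5 RPKM in the wild type, with a ratio of 1.38 (1.33 to 1.44). The WIPI proteins, which read the lipid mark, also differed in sign. WIPI1 had a ratio of 0.722 (0.671 to 0.776) and WIPI2, which recruits ATG16L1, a ratio of 1.06 (1.01 to 1.11), and neither was called. WIPI1 was 45.6% of their summed level in the knockout and 55.2% in the wild type.

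The class III PI3 kinase that acts in autophagy contains PIK3C3 (VPS34), PIK3R4 (VPS15), BECN1 and ATG14. Of its 4 subunits BECN1, PIK3C3 and ATG14 were called higher, against 10.4% of all genes tested. Relative to the 50 nearest expressed genes only ATG14 of these 3 was called, with BECN1 at a log2 value of 0.50 and PIK3C3 at 0.59. ATG14 missed the limit with a 99% interval, and with a fold of 2 none of the 3 was called. BECN1 (chromosome 17, 40962150 to 40976310), the scaffold on which the complex assembles, had 4404 knockout and 3149 wild-type fragments, at 29.5 RPKM in the knockout and 17.1 RPKM in the wild type, a ratio of 1.63 (1.56 to 1.71). PIK3C3 (chromosome 18, 39535199 to 39661446), the catalytic subunit, had 2474 and 1714 fragments in the knockout and wild type and a ratio of 1.68 (1.58 to 1.79). ATG14 (chromosome 14, 55833109 to 55878576), which directs the complex to autophagy, had 1161 and 808 fragments in the knockout and wild type and a ratio of 1.68 (1.53 to 1.84). PIK3R4, the pseudokinase partner of PIK3C3, had 3083 knockout and 3678 wild-type fragments and a ratio of 0.978, whose interval of 0.932 to 1.03 holds 1. The PIK3C3 level was 1.32 times that of PIK3R4 in the knockout and 0.766 times in the wild type. BECN1 was 2.55 times PIK3C3 in the knockout and 2.63 times in the wild type.

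UVRAG takes the place of ATG14 in the form of the kinase complex that acts on endosomes. It had 816 knockout and 866 wild-type fragments and a ratio of 1.10 (0.998 to 1.21), so that the level of ATG14 was 1.55 times that of UVRAG in the knockout and 1.02 times in the wild type. AMBRA1, a regulator that binds BECN1, had a ratio of 1.05 (0.984 to 1.13). The median log2 ratio of the 6 genes was 0.42 (0.02 over all genes tested). Of the 6, 3 were called higher and 0 lower (10.4% and 9.17% of all genes tested), and relative to the 50 nearest expressed genes ATG14 was the 1 gene of the group called. The row of BECN1 overlaps that of CNTD1, which had 67 knockout and 57 wild-type fragments.

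The conjugation enzymes attach ATG12 to ATG5 and ATG8 proteins to lipid. The median log2 ratio of the 11 genes was -0.01, and ATG16L1 was the 1 gene called. ATG16L1 (chromosome 2, 234160217 to 234204320), which binds the ATG12-ATG5 conjugate and sets where lipidation takes place, had 7608 knockout and 4125 wild-type fragments. Its level was 32.1 RPKM in the knockout and 14.1 RPKM in the wild type, a ratio of 2.15 (2.07 to 2.23), the highest of the members counted in both libraries. Its partners had ratios near 1, at 0.992 (0.944 to 1.04) for ATG5 and 1.02 (0.977 to 1.06) for ATG12. The level of ATG16L1 was 2.45 times that of ATG5 in the knockout and 1.13 times in the wild type, whereas ATG5 was 1.003 times ATG12 in the knockout and 1.030 times in the wild type. ATG16L2, a relative of ATG16L1, had 443 knockout and 679 wild-type fragments and a ratio of 0.761 (0.674 to 0.859). It was 8.46% of the summed ATG16L level in the knockout and 20.7% in the wild type. The small RNA rows SCARNA5 and SCARNA6 within ATG16L1 had 11 and 14 knockout fragments, against 12 and 17 in the wild type.

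The enzymes that activate and transfer the conjugates stayed close to 1. ATG3, the E2-like enzyme for ATG8 and the most abundant of the group by mean RPKM, had 31.8 RPKM in the knockout and 27.5 RPKM in the wild type, a ratio of 1.10 (1.04 to 1.15). ATG7, the E1-like enzyme of both branches, had a ratio of 1.16 (1.09 to 1.24). ATG10, the E2-like enzyme for ATG12, had 254 knockout and 351 wild-type fragments, a ratio of 0.844 (0.715 to 0.995). The ATG4 proteases, which trim ATG8 proteins and release them from lipid, had ratios of 0.769 for ATG4A, 1.07 for ATG4B, 0.771 for ATG4C and 0.913 for ATG4D. The rows of ATG4D and ATG7 overlap rows with more fragments. ATG4D had 613 knockout and 783 wild-type fragments, and KRI1, which overlaps it, 2085 and 2323. ATG7 had 1754 knockout and 1758 wild-type fragments, and VGLL4, which overlaps it, 1806 and 1994. ATG4B was the main protease by level, with 58.1% of the summed RPKM in the knockout and 51.9% in the wild type.

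The ATG8 proteins are the small ubiquitin-like tags of the autophagosome, and 0 of 5 were called. GABARAP, the most abundant, had 5292 knockout and 4993 wild-type fragments, at 85.2 RPKM in the knockout and 65.2 RPKM in the wild type, a ratio of 1.24 (1.19 to 1.29). MAP1LC3B, whose lipidated protein is the usual marker of autophagosomes, had 8082 knockout and 6956 wild-type fragments and a ratio of 1.36 (1.31 to 1.40). GABARAPL2 had 3283 and 3161 fragments in the knockout and wild type and a ratio of 1.21 (1.15 to 1.27). GABARAPL1 alone of the 5 had a ratio below 1, at 0.792 (0.751 to 0.835), but its log2 value relative to its 50 nearest expressed genes was 0.50. It had 2328 knockout and 3428 wild-type fragments, a log2 ratio of -0.34, and lies on chromosome 12 (10365489 to 10375724) among genes with a median of -0.84. MAP1LC3A was near the limit of detection, with 6 knockout and 0 wild-type fragments. That is at least 2.33-fold higher against a floor of 3 wild-type fragments, and the exact interval starts at 1.37. The family summed to 201 RPKM in the knockout and 159 RPKM in the wild type, and GABARAP held 42.4% of it in the knockout and 41.0% in the wild type. GABARAPL1 held 8.91% in the knockout and 13.5% in the wild type. Reads of near-identical copies can be shared between rows, and the copies MAP1LC3B2 and GABARAPL3 had 55 and 12 knockout fragments, against 58 and 23 in the wild type.

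Of the 4 cargo receptors NBR1 was called higher and OPTN lower, and SQSTM1 and TAX1BP1 were not called. NBR1 (chromosome 17, 41322498 to 41363707), a receptor for ubiquitinated aggregates and peroxisomes, had 7679 knockout and 4942 wild-type fragments. It rose to 21.8 RPKM in the knockout, against 11.4 RPKM in the wild type, a ratio of 1.81 (1.75 to 1.88). OPTN (chromosome 10, 13142082 to 13180276), a receptor in the removal of damaged mitochondria and of bacteria, had 7119 knockout and 13441 wild-type fragments. It fell to 28.4 RPKM in the knockout, against 43.6 RPKM in the wild type, a ratio of 0.618 (0.600 to 0.636). The call of OPTN was lost under total count and upper quartile scaling, with ratios of the deposited RPKM, with a fold of 2 and relative to its chromosomal neighbours, where its log2 value was -0.16. The level of NBR1 was 0.767 times that of OPTN in the knockout and 0.261 times in the wild type. SQSTM1 (p62), the receptor that is itself degraded by autophagy, had 40698 knockout and 32368 wild-type fragments and a ratio of 1.47 (1.45 to 1.49), just within the limit. TAX1BP1, which works beside NBR1 and SQSTM1 in clearing ubiquitinated cargo, had a ratio of 0.890 (0.864 to 0.917). SQSTM1 took 68.5% of the summed receptor level in the knockout and 56.5% in the wild type, and OPTN took 11.1% in the knockout and 21.7% in the wild type. The SQSTM1 row overlaps that of MGAT4B, which had 20413 knockout and 16988 wild-type fragments and a ratio of 1.40.

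STX17 (chromosome 9, 102668915 to 102736818), the SNARE of the finished autophagosome that drives fusion with the lysosome, was called higher. It had 4471 knockout and 3277 wild-type fragments, at 9.30 RPKM in the knockout and 5.53 RPKM in the wild type, with a ratio of 1.59 (1.52 to 1.67). Of the called members its interval came nearest to the 1.5-fold limit, followed by ATG14 with a lower bound of 1.53, and both missed it with a 99% interval. STX17 also missed it relative to its 50 nearest expressed genes, at a log2 value of 0.35. SQSTM1 with a lower bound of 1.45 and RB1CC1 with 1.41 were the nearest outside.

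**Figure D3:**
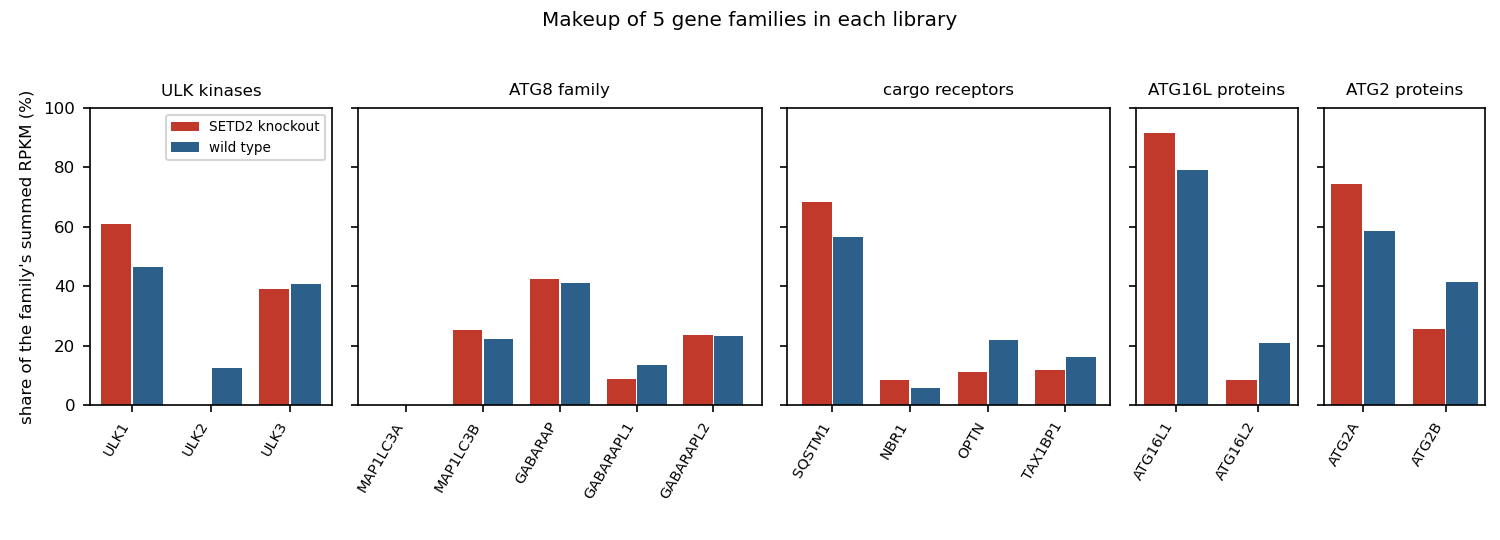
Share of each family's summed RPKM (percent) taken by each gene in the SETD2 knockout (red) and wild-type (blue) library for 5 families, 1 bar per library with no error. The shares of ULK1, SQSTM1, ATG16L1 and ATG2A are larger and those of ULK2, OPTN, ATG16L2 and ATG2B smaller in the knockout.

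Chromosomal surroundings moved with part of these values. For 5 members, ULK1, ATG101, GABARAPL1, OPTN and TAX1BP1, the 50 nearest expressed genes had a median log2 ratio below -0.3. OPTN, at a log2 ratio of -0.69, lay among genes with a median of -0.54, and its value relative to them was -0.16. Relative to their surroundings, the log2 values were 1.16 for ATG16L1, 1.07 for ULK1, 0.88 for ATG14, 0.71 for ATG2A and 0.69 for NBR1, and the intervals of these 5 genes lay wholly above 1.5-fold. BECN1 at 0.50, PIK3C3 at 0.59 and STX17 at 0.35 no longer met the rule. ULK2 remained lower. BECN1 and NBR1 lie close together on chromosome 17 among genes with medians of 0.20 and 0.16. Over all genes tested, this centring gave 1737 higher and 980 lower genes, against 1756 and 1550 without it. The part of the surroundings in the members' ratios was not tested.

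**Figure D4:**
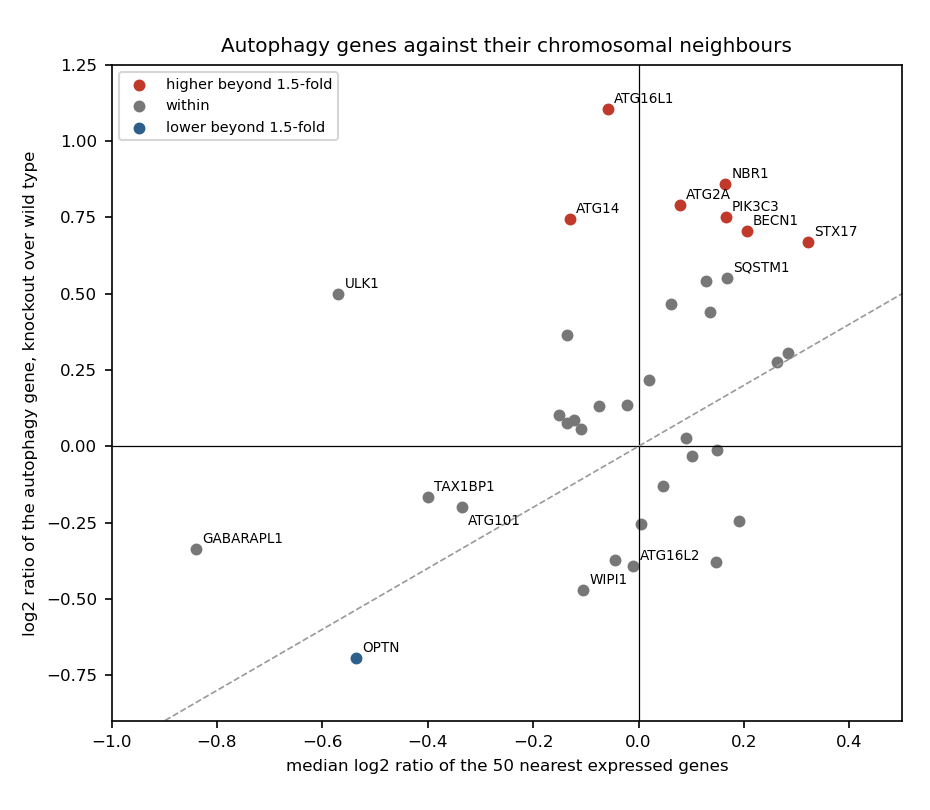
Log2 ratio of each autophagy gene counted in both libraries (vertical axis) against the median log2 ratio of the 50 nearest expressed genes on its chromosome (horizontal axis), with red and blue for genes called higher and lower. OPTN lies near the dashed line of equal values, and ULK1 lies at 0.50 above surroundings at -0.57.

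Beyond the core, 65 other genes of the pathway were examined, and 5 were higher (7.69%) and 6 lower (9.23%), near the shares over all genes tested. TP53INP1, a stress protein that binds ATG8 proteins, had 4464 knockout and 1085 wild-type fragments and rose to 11.4 RPKM in the knockout, against 2.24 RPKM in the wild type. Its ratio was 4.80 (4.49 to 5.13). DEPTOR, an inhibitor of mTOR, the kinase that restrains ULK1, had 237 knockout and 45 wild-type fragments and a ratio of 6.14 (4.45 to 8.65). MTOR itself had a ratio of 0.9995 (0.966 to 1.03), and its partner RPTOR one of 1.001 (0.956 to 1.05). DAPK1, a death-associated kinase that phosphorylates BECN1, had a ratio of 1.90 (1.84 to 1.97). MAP1LC3C, a further LC3 gene, was scarce, at 31 knockout and 10 wild-type fragments (ratio 3.62, 1.73 to 8.27). BCL2, which binds and restrains BECN1, had a ratio of 1.85 (1.63 to 2.11).

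The lower genes of this list included subunits of AMPK, the energy sensor that activates ULK1. PRKAG2, a regulatory gamma subunit, had 1356 knockout and 3585 wild-type fragments and a ratio of 0.441 (0.414 to 0.470), and PRKAG1, the more abundant gamma subunit, a ratio of 0.630 (0.597 to 0.664). The catalytic subunit genes were not called, with ratios of 0.893 for PRKAA1 and 1.51 (1.35 to 1.68) for PRKAA2. Nor were the beta subunit genes, at 0.694 (0.647 to 0.745) for PRKAB1 and 1.16 (1.10 to 1.22) for PRKAB2. PHB2, a mitochondrial inner membrane receptor, had a ratio of 0.518 (0.502 to 0.535), TECPR1, a tether of autophagosomes to lysosomes, 0.559 (0.506 to 0.617), SH3GLB1, a membrane-bending protein, 0.606 (0.588 to 0.625), and the WIPI relative WDR45B 0.642 (0.620 to 0.665). Each of these 6 lay among genes with a negative median, between -0.20 for WDR45B and -0.80 for PHB2. Relative to the 50 nearest expressed genes, 0 of the 65 were lower and 5 were higher.

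Of 13 further tethering and fusion genes, 0 were higher and TECPR1 was lower, and of 10 genes of the lysosomal membrane, its proton pump and its regulators 0 were called, against 19.6% of all genes tested called in either direction. Whether these lists differ from other genes was not tested. LAMP1 had a ratio of 1.14 and LAMP2 a ratio of 0.823. TFEB, the transcription factor that induces autophagy and lysosome genes, had 495 knockout and 452 wild-type fragments and a ratio of 1.28 (1.12 to 1.45), and its relative TFE3 a ratio of 0.770 (0.742 to 0.800).

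**Figure D5:**
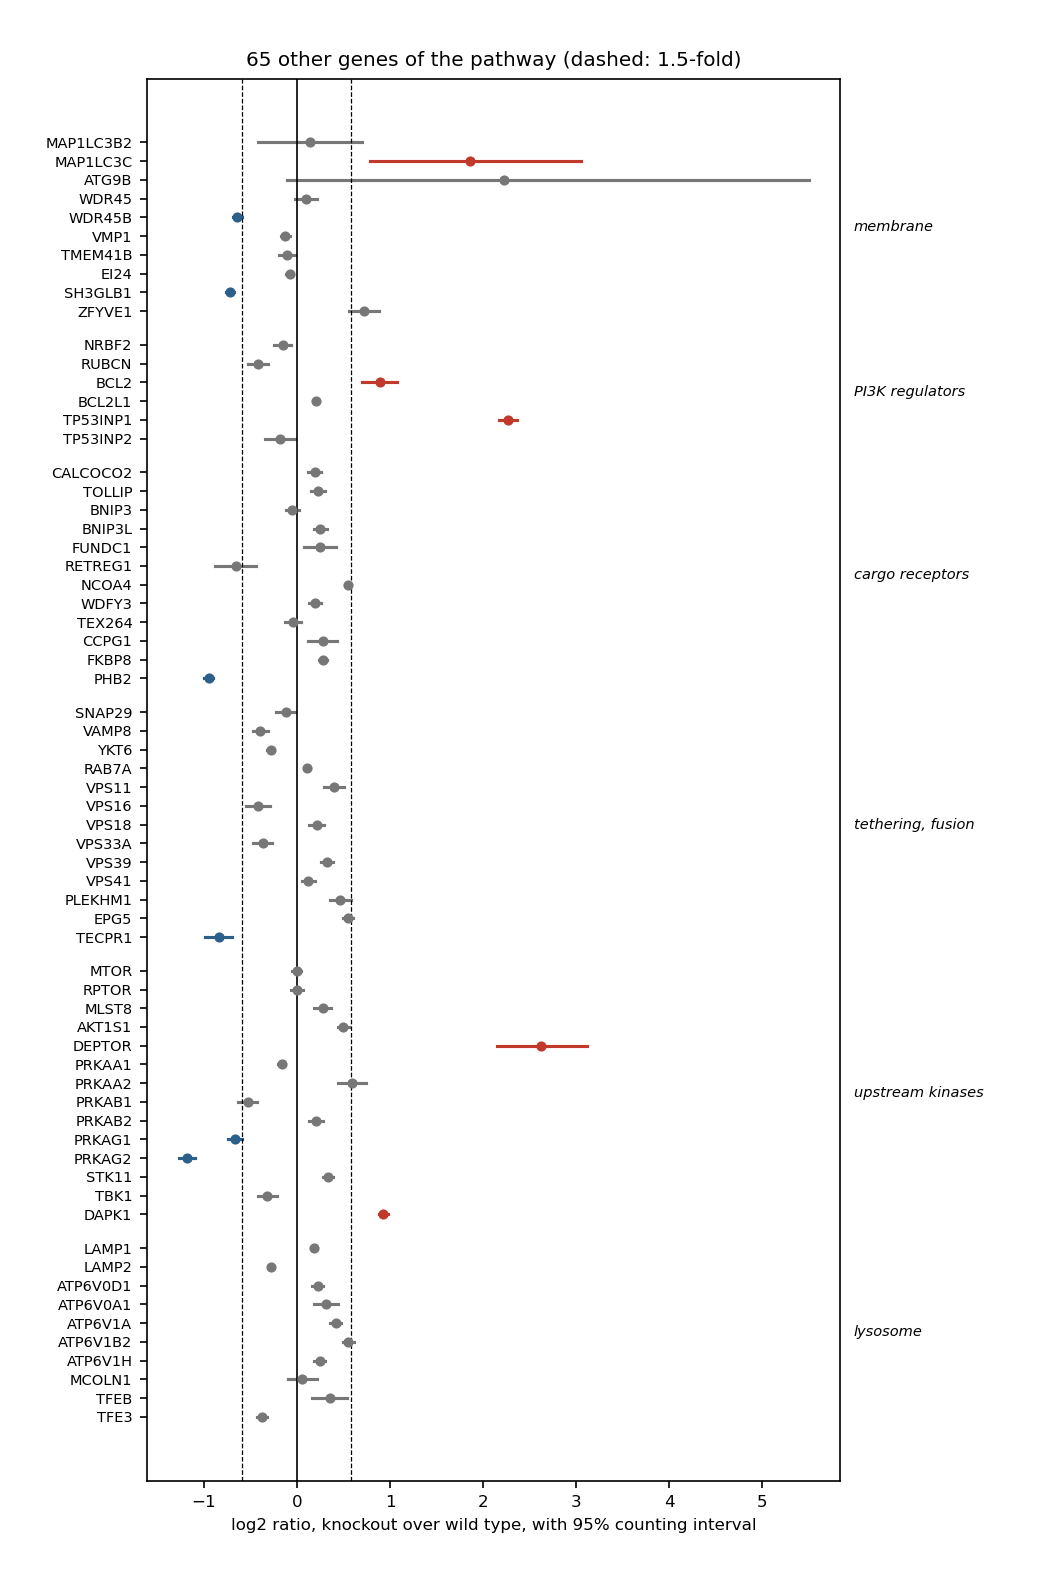
Log2 ratio of knockout over wild type with its exact 95% counting interval for 65 other genes of the pathway, grouped by role, red where called higher and blue where called lower beyond 1.5-fold (dashed). TP53INP1 and DEPTOR lie farthest to the right among genes with narrow intervals and PRKAG2 farthest to the left.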

How the data were processed

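RNA from 2 cell lines was sequenced, 1 library each. For each library the authors deposited a table of raw read counts and RPKM values by gene, per the file headers. RPKM was the deposited count divided by the length column and by 1 library total. Per the submitters' processing notes, hg19, TopHat2 2.0.6, Bowtie and HTSeq were used. The sources used here give no settings, annotation or use of strand, so reads of overlapping genes cannot be told apart. Every deposited count was even, and counts were divided by 2 to give fragments. Y rows of genes that also have an X row were dropped, leaving 23375 of 23398 rows.

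Libraries were scaled by TMM in edgeR 4.0.16 (R 4.3.3) on 16894 genes with at least 10 reads. With 1 library per line no test across replicates and no p-value was possible, so ratios carry exact conditional (Clopper-Pearson) 95% intervals (scipy 1.17.1). The intervals cover counting error only. They were run on simulated counts with counting error alone, which is what they assume. That run checks the code and cannot show the spread between libraries. Log2 ratios used 0.5 added fragments. Surroundings were the 50 nearest genes with at least 100 reads. ATG101, WDR45B, RUBCN and RETREG1 were matched through older symbols in RefSeq.

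The members and lists were chosen with earlier results of these data known. Every member was accounted for. Of the other list, the 4 higher and 4 lower genes with the interval bound farthest beyond 1 were named first. BCL2, PRKAG1 and WDR45B complete the called genes and, like the other genes named from that list, were chosen after their values were seen. The group with at least 200 fragments was also chosen after the data were seen. The alternatives tried were 3 other scalings (total count, upper quartile and DESeq2 1.42.0 size factors), 2 other read minimums, a 99% interval, no interval, a fold of 2, undivided counts, 2 added fragments, protein-coding genes, surroundings and RPKM ratios.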

Additional observations from a re-analysis of the deposited data

How the results depend on the processing

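No called member changed sign under any of the 13 alternatives, but most of them could not change a sign. Changes of interval and fold leave every ratio as it is, and the scalings shift all genes alike by a small amount. ULK2 and ATG16L1 were called under each of the 13. With total count scaling, upper quartile scaling or deposited RPKM ratios, 1 member was lower in place of 2, since OPTN missed the limit and SQSTM1 passed it. These scalings moved the median of all genes by at most 0.08. With a fold of 2, 971 genes were higher and 569 lower, 1 member (ATG16L1) was higher and 1 (ULK2) lower, and 2 other pathway genes were higher and 1 lower. Without an interval, 3538 genes were higher and 2830 lower, and 8 other pathway genes were higher. Relative to the 50 nearest expressed genes, 980 genes were lower, 1 member (ULK2) was lower, 0 other pathway genes were lower, and ULK1 was called higher. With a 99% interval 5 members were higher, ATG14 and STX17 missing the limit. The cause of these changes was not tested. With undivided counts MAP1LC3A was also called. The median log2 ratio of the members lay between 0.11 and 0.21 in all 13.

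No paired analysis was possible because each group has 1 library. Depth limits MAP1LC3A, with 6 knockout and 0 wild-type fragments. For ULK2, 0 fragments were counted in 50670012 in the knockout, against 754 in the wild type. There depth limits only how far below the wild type the level can be placed. With 1 library per line, differences between cultures cannot be told apart from those between genotypes.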
